A study of Mus musculus with 38 samples.

Results

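The genes described here belong to the DNA repair and recombination families. They were chosen by gene symbol alone: the Rad, Xrcc, Ercc, Msh, Mlh, Brca, Fanc and Parp genes, the Rpa subunits of replication protein A, the polymerases delta, epsilon, beta, eta and kappa with their partners, the ligases Lig1, Lig3 and Lig4, and the kinases Atm, Atr and Prkdc. Of the 21618 distinct probes on the arrays, 6518 could be given 1 gene symbol, and 41 of these were the members described here. Another 45 symbols that meet the rule, among them Brca1, Prkdc, Xrcc5 and Polb, were matched to no probe and were not analysed here.

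Spleen RNA of male mice exposed to 10 rad (10 cGy) of X-rays and of sham-exposed male mice was compared 3.5 h after exposure on 38 two-colour arrays. The mice came from 6 inbred strains, with 8 arrays each from A/J, B6.C and Balb/C (labelled BalbxJ), 6 from C3H/HeJ (labelled C3H) and 4 each from C57Bl6/J (labelled BI6Jx) and DBA/2J. The labels name no transgene or mutation and give an age of 10 to 14 wk. Every array held RNA of 1 irradiated mouse and 1 sham mouse, and each random pair of mice was hybridised again with the dyes exchanged, which left 19 arrays with Cy5 as the dye of the irradiated RNA and 19 with Cy3. The labels do not say which arrays share a pair of mice, so strains served as replicates over all mice, and p-values within a strain, where both arrays of a pair were counted, are too small.

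Cells answer breaks in DNA with several pathways. The kinase Atm and the checkpoint clamp signal the damage, Ku proteins lead to end joining, and Brca2 and its partners carry out homologous recombination with a sister chromatid. Single damaged bases, bulky lesions and mismatches are cut out by base excision, nucleotide excision and mismatch repair, and the gap is filled and sealed by replication polymerases and ligases. Spleen is rich in lymphocytes, which are sensitive to radiation, and lymphocytes rely on several of these pathways when they rearrange or mutate their antibody genes.

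The deposited values are signed scores for the ratio between both dyes. Each array was centred on its median and the sign was turned on arrays with irradiated RNA in Cy3. If the deposited ratios are Cy5 over Cy3, a positive value means more signal in irradiated than in sham mice, and if they are Cy3 over Cy5 it means less. The sources used here do not settle which, so values are given as positive or negative and no fold change is computed. The value of a strain is the mean of its 2 orientations, each averaged over its arrays.

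An array gave values for 10941 to 19860 probes. The test of a member needed values on 19 or more arrays, covering both orientations in each of the 6 strains. This held for 27 members, whereas 14 had too few values. Members with a value on all 38 arrays numbered 3 (Lig1, Ercc1 and Parp9). The median over the members with a value was far from 0 on array 36 of Balb/C (1.37) and array 34 of DBA/2J (1.46), and it lay between -0.728 and 0.590 on the other 36 arrays. Over all probes, array 97 of C57Bl6/J and arrays 50 and 53 of B6.C correlated under -0.3 with 8, 4 and 3 arrays of their own orientation, and all 15 pairs of arrays under this limit held 1 of them. The other array in such a pair was 1 of 12 arrays, each in 1 or 2 pairs. The direction is treated as unsettled for arrays 97, 50 and 53, although a correlation by itself does not say which array of a pair is turned.

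Over the 6 strains, no member passed the test of a mean different from 0, and the members lay around 0 as the other probes did. The means of the 27 members ran from -0.452 to 0.668, with 15 positive and 12 negative. Their median was 0.104, against -0.00675 over all 14513 probes tested. Adjusted p-values (limma, Benjamini-Hochberg over all probes tested) of the members ran from 0.567 to 0.915. At an adjusted p under 0.05, 0 of 27 members and 0% of all probes were called. At an unadjusted p under 0.05 there was 1 positive member, Rad51d, where 4.27% of all probes were positive calls, and 1 negative member, Rpa3, where 3.94% were negative calls. As deposited, without centring, 0 members and 31 probes passed at an adjusted p under 0.05.

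**Figure D1:**
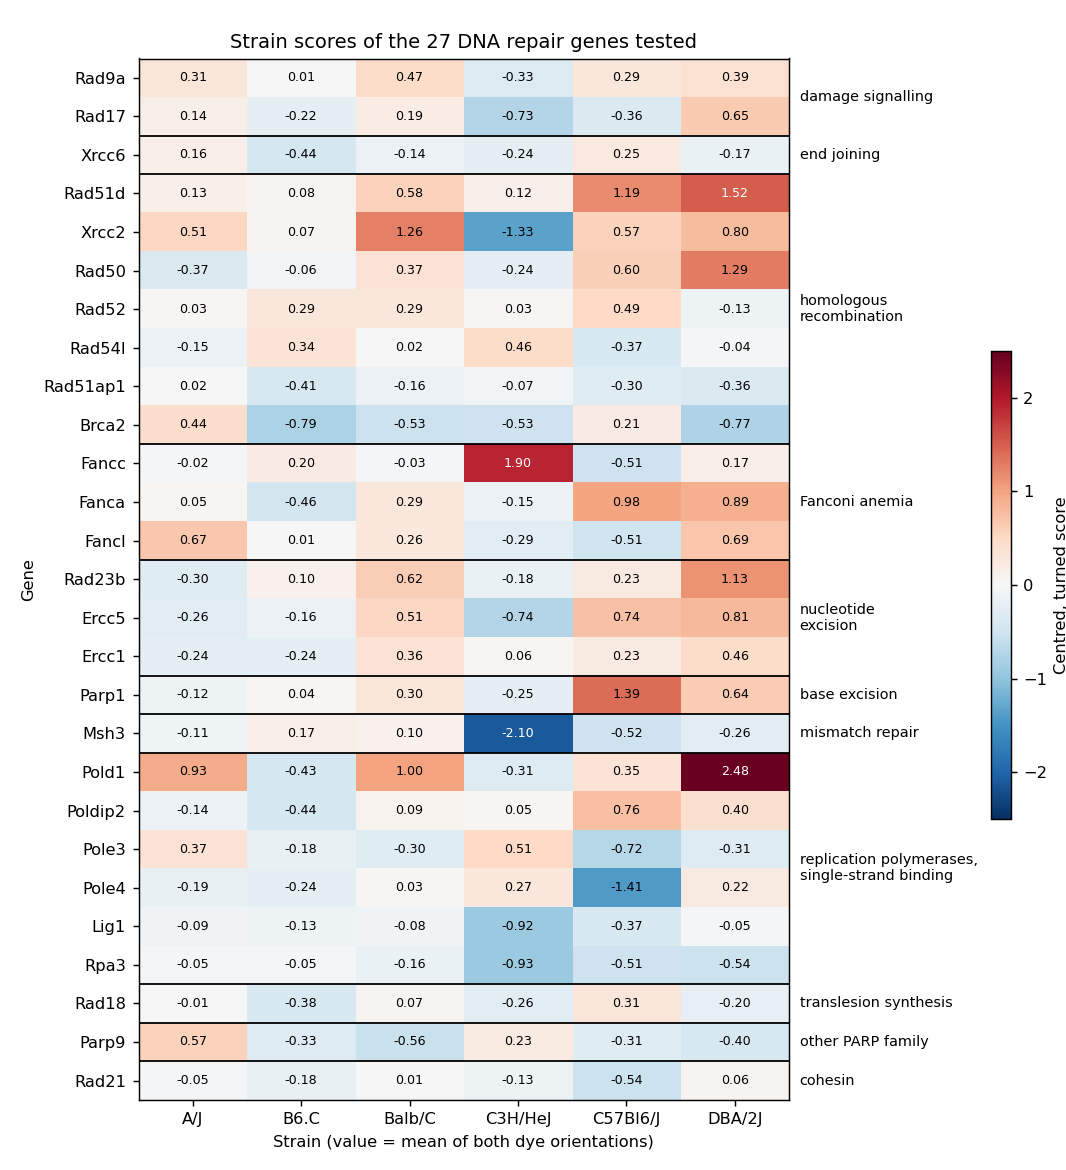
Strain values of the 27 members tested, in centred and turned scores without unit, with strains in columns and genes in rows grouped by repair pathway. The values run from -2.10 (Msh3 in C3H/HeJ) to 2.48 (Pold1 in DBA/2J), and no pathway holds 1 colour across all strains.

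A promoter window is shown for 3 members on which the values below turn: Rpa3, negative in all 6 strains, Pold1, with the highest mean, and Msh3, with the lowest. The windows are those of RefSeq on GRCm38.p6 and reach from 250 bases before to 50 bases after the annotated start, read 5′ to 3′ on the strand of the gene. Capitals mark CCAAT and GGGCGG on either strand (ATTGG and CCGCCC on the reverse), which do not overlap each other here. The windows lie on the minus strand at chr6:8259092-8259391 for Rpa3, chr7:44548766-44549065 for Pold1 and chr13:92354954-92355253 for Msh3.
Rpa3: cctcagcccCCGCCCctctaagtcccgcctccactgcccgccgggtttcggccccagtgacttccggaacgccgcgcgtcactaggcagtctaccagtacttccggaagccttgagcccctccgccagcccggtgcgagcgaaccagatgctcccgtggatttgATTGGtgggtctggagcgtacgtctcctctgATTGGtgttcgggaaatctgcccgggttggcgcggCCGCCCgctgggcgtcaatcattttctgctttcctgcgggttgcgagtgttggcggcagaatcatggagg
Pold1: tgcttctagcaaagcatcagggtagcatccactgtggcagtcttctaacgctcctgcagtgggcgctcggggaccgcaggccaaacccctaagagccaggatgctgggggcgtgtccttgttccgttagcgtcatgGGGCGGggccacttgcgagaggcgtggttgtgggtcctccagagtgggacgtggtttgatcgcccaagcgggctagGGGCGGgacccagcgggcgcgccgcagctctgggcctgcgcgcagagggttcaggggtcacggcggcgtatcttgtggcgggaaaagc
Msh3: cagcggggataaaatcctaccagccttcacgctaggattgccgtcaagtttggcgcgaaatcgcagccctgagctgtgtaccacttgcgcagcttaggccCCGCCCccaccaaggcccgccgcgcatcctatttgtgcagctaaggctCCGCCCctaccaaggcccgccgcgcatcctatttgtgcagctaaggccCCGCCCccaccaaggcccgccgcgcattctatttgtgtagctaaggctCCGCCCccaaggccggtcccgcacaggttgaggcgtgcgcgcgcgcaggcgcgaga
The Rpa3 window held CCAAT 2 times and GGGCGG 2 times. GGGCGG stood 2 times in the Pold1 window and 4 times in the Msh3 window, which both lacked CCAAT. Of all 32851 windows in the table, 37.4% held CCAAT and 35.7% held GGGCGG. For 34 of the 41 members, 43 windows were listed, and 19 of these windows held CCAAT and 24 held GGGCGG. Counted by member, 17 of the 34 held CCAAT and 21 held GGGCGG in at least 1 window. Rad51d has none in the table.

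Among the genes of homologous recombination, Rad51d stood on the positive side. This gene, whose product takes part in the repair of breaks by recombination, was positive in all 6 strains, with values of 0.125 in A/J, 0.0759 in B6.C, 0.576 in Balb/C, 0.118 in C3H/HeJ, 1.19 in C57Bl6/J and 1.52 in DBA/2J. Its mean was 0.601 (SE 0.213, n = 6 strains, adjusted p = 0.567). All 6 strains were positive for 1 of 27 members and for 1.47% of all probes. The size came from arrays with irradiated RNA in Cy5. With irradiated RNA in Cy5, Rad51d had 0.194, 0.620, 1.68 and 4.24 on the 4 Balb/C arrays, 3.20 and 1.49 on the C57Bl6/J arrays and 3.12 on the only DBA/2J array with a value. With irradiated RNA in Cy3, the turned values were -0.231, -0.282, -0.436 and -1.18 in Balb/C, -0.541 and 0.609 in C57Bl6/J and 0.864 and -1.02 in DBA/2J. In Balb/C the 2 orientations did not overlap and had opposite signs. The value of 4.24 in Balb/C came from array 36 and that of 3.12 in DBA/2J from array 34. Without these arrays Rad51d had 0.150 in Balb/C and no strain value in DBA/2J.

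Rad50, part of the complex that binds broken ends, had values of -0.369 in A/J, -0.0615 in B6.C, 0.367 in Balb/C, -0.235 in C3H/HeJ, 0.601 in C57Bl6/J and 1.29 in DBA/2J. Its mean was 0.265 (SE 0.213, n = 6 strains, adjusted p = 0.641). It was the lowest member in A/J and had its highest value in DBA/2J. In Balb/C the arrays with irradiated RNA in Cy5 gave 0.602, 0.452, 0.597 and 3.79, and those with it in Cy3 gave -0.00447, -0.795 and -1.08 after turning. In C3H/HeJ the values were 1.05, 0.260 and 0.349 with irradiated RNA in Cy5, against -0.593, -1.52 and -0.951 with it in Cy3. The orientations did not overlap and had opposite signs in both strains. In DBA/2J Rad50 had 3.58 on array 34 and 1.15 on array 83, against 0.974 and -0.567 with irradiated RNA in Cy3.

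The other 5 recombination members tested split between both sides. Xrcc2, which takes part in the same pathway as Rad51d, had a mean of 0.313 (SE 0.288) and ranged over strains from -1.33 in C3H/HeJ to 1.26 in Balb/C, where it was the highest member. Rad52 had a mean of 0.166. Rad54l, a motor protein that moves along DNA, had a mean of 0.0428 and was the highest member in B6.C (0.344). On the negative side were Rad51ap1 with a mean of -0.212 (SE 0.114, negative in 5 of 6 strains) and Brca2 with a mean of -0.328 (SE 0.188, negative in 4 of 6 strains). Brca2 was the lowest member in B6.C (-0.787) and in DBA/2J (-0.769).

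**Figure D2:**
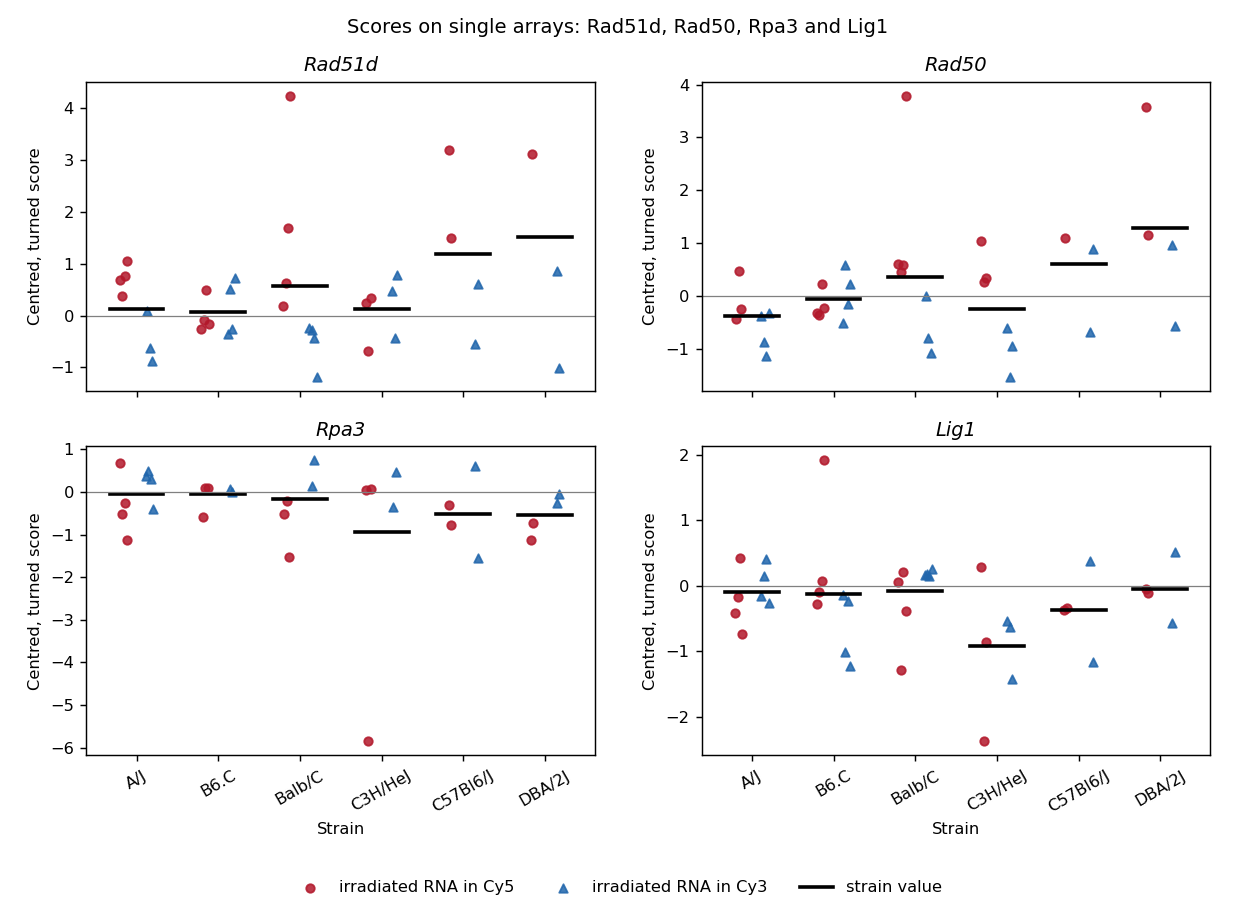
Centred, turned scores of Rad51d, Rad50, Rpa3 and Lig1 on single arrays, by strain, with circles for irradiated RNA in Cy5, triangles for irradiated RNA in Cy3 and a bar at the strain value. The highest Rad51d and Rad50 values (4.24 and 3.79, both in Balb/C) are circles, and the low Rpa3 value of -5.85 in C3H/HeJ is 1 array.

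Rpa3 and Lig1, which work at the replication fork and in the last steps of repair, were negative in all 6 strains. Rpa3, the smallest subunit of the complex that coats single-stranded DNA, had values of -0.0536 in A/J, -0.0535 in B6.C, -0.157 in Balb/C, -0.931 in C3H/HeJ, -0.511 in C57Bl6/J and -0.542 in DBA/2J. Its mean was -0.375 (SE 0.146, n = 6 strains, adjusted p = 0.567). The C3H/HeJ value rested on array 27 (-5.85), since the other 4 arrays of C3H/HeJ lay between -0.350 and 0.458. In DBA/2J all 4 arrays were negative, from -1.13 to -0.0497.

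Lig1, the ligase that joins Okazaki fragments and seals long repair patches, had values of -0.0931 in A/J, -0.126 in B6.C, -0.0821 in Balb/C, -0.919 in C3H/HeJ, -0.373 in C57Bl6/J and -0.0548 in DBA/2J, and a mean of -0.275 (SE 0.144, adjusted p = 0.567). C3H/HeJ lay farthest from 0. There, arrays with irradiated RNA in Cy5 gave 0.292, -2.37 and -0.855, and arrays with it in Cy3 gave -0.540, -0.626 and -1.42, so 5 of 6 arrays were negative and both orientations had the same sign. All 6 strains were negative for 2 of 27 members and for 2.8% of all probes.

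Pold1, the catalytic subunit of polymerase delta, had the highest mean of all members, 0.668 (SE 0.339, n = 6 strains, adjusted p = 0.567). Its values were 0.935 in A/J, -0.434 in B6.C, 0.997 in Balb/C, -0.314 in C3H/HeJ, 0.349 in C57Bl6/J and 2.48 in DBA/2J. The spread within a strain exceeded these values. In Balb/C the arrays with irradiated RNA in Cy5 averaged 4.03 ± 3.26 and those with it in Cy3 averaged -2.04 ± 0.995 (SD, n = 4 arrays each). In C57Bl6/J the 2 arrays with irradiated RNA in Cy3 gave -6.97 and 3.08.

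The remaining replication members stayed nearer to 0 over the strains. Poldip2, a protein that binds polymerase delta, had a mean of 0.118, and the small subunits of polymerase epsilon, Pole3 and Pole4, had means of -0.106 and -0.220. Pole4 was the lowest member in C57Bl6/J (-1.41), where it had -0.298, -0.383 and -2.48 on 3 arrays.

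For many members the 2 dye orientations of a strain gave opposite signs after turning. A signal that follows irradiation has the same sign in both orientations, whereas one that stays with the dye changes sign. Both orientations had 1 sign in 59 of the 162 pairs of a member and a strain, 36.4%, against 36.6% over all probes tested. The dye part is the difference between an orientation mean and the strain value. By definition it is larger than the strain value where the 2 orientations differ in sign, so this is no separate result. These were the other 103 pairs, 63.6%, against 63.4% over all probes. The members therefore shared the frequent change of sign between orientations with the array as a whole. By strain, 10 of the 27 members had 1 sign in both orientations in A/J, 11 in B6.C, 5 in Balb/C, 4 in C3H/HeJ, 16 in C57Bl6/J and 13 in DBA/2J. Balb/C and C3H/HeJ had the lowest shares, 18.5% and 14.8%, against 30.3% and 22.5% of all probes. Across the 27 members, the orientation means correlated at -0.853 in Balb/C and -0.661 in C3H/HeJ (all probes: -0.650 and -0.611). These are descriptions across genes, which are not independent replicates.

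**Figure D3:**
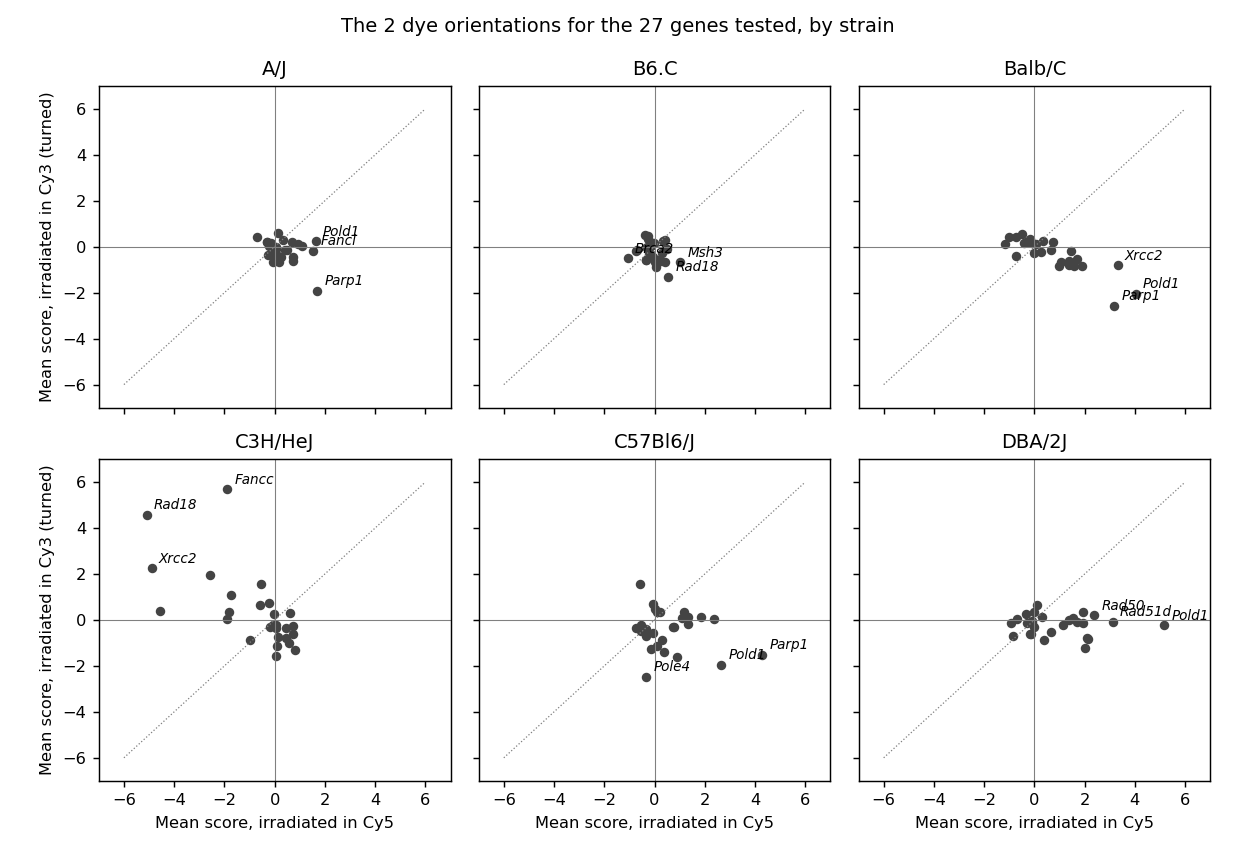
Mean score of each of the 27 members tested with irradiated RNA in Cy5 (horizontal axis) and with irradiated RNA in Cy3 after turning (vertical axis), by strain, with the dotted line where both are equal and the 3 members farthest from 0 named. In Balb/C the points run from upper left to lower right (r = -0.853), away from the dotted line.

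Parp1, which senses single-strand breaks and is grouped here with base excision repair, had large dye parts in several strains. In Balb/C it had 2.07, 2.26 and 5.18 with irradiated RNA in Cy5 and -0.867, -1.92, -2.38 and -5.07 with irradiated RNA in Cy3. The strain value that remained was 0.304, with a dye part of 2.86. The orientations did not overlap in A/J either, with 2.62 and 0.745 against 0.250, -1.93, -3.64 and -2.38. In C57Bl6/J Parp1 was the highest member (1.39), from 4.60 and 3.98 with irradiated RNA in Cy5 and -5.20 and 2.17 with irradiated RNA in Cy3. Its value of 2.17 came from array 97, whose direction is unsettled. Over the strains the mean was 0.335 (SE 0.209, adjusted p = 0.580).

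In C3H/HeJ another group of members had large dye parts of the other sign. Rad18, the ubiquitin ligase that marks the sliding clamp for translesion synthesis, had -5.12 and -5.07 with irradiated RNA in Cy5 and 4.58 with irradiated RNA in Cy3, so that its strain value was -0.256 and its dye part -4.84. Xrcc2 had -5.92 and -3.88 with irradiated RNA in Cy5, against 2.20 and 2.28 with it in Cy3. In the other 5 strains no Rad18 value lay beyond -2.01 to 0.685.

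**Figure D4:**
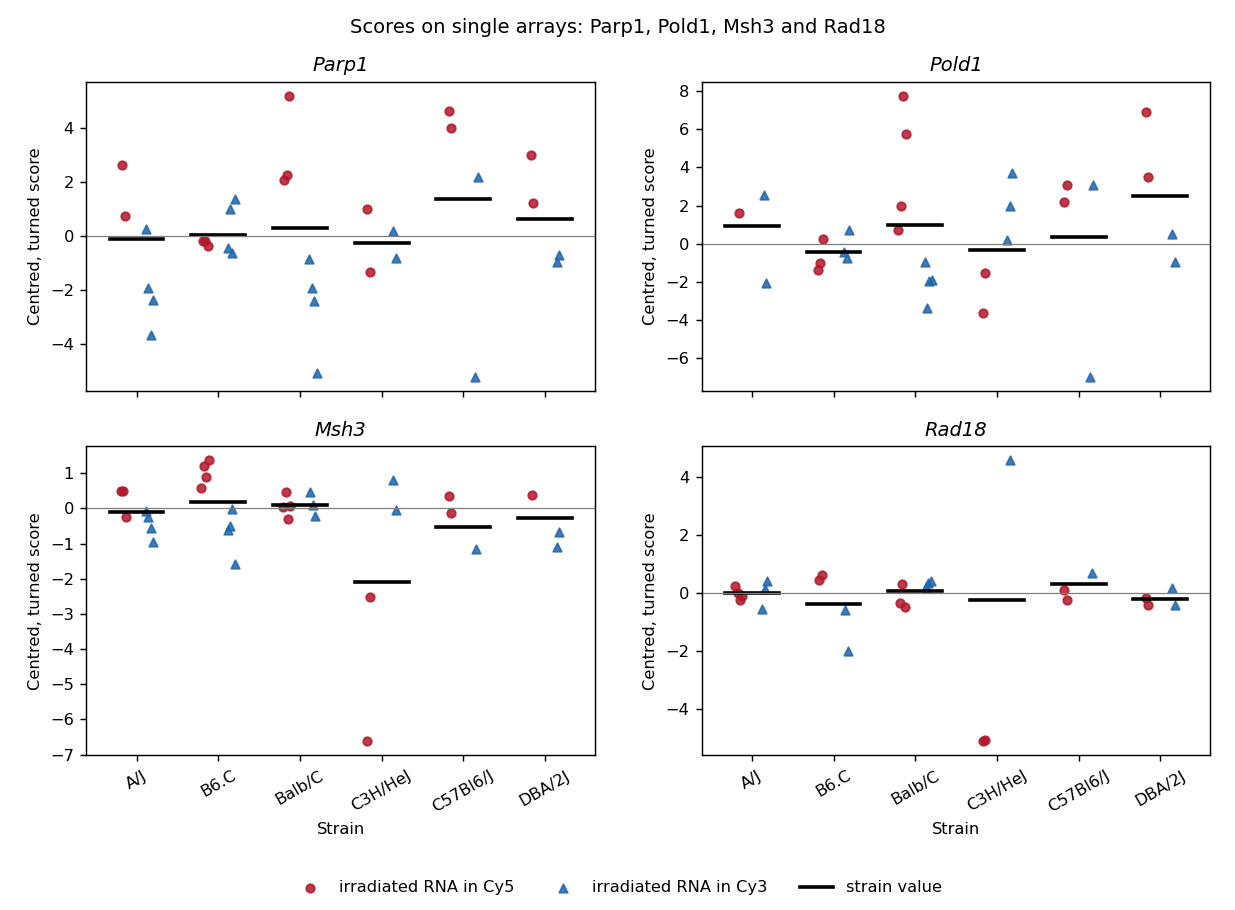
Centred, turned scores of Parp1, Pold1, Msh3 and Rad18 on single arrays, by strain, with circles for irradiated RNA in Cy5, triangles for irradiated RNA in Cy3 and a bar at the strain value. In Balb/C the circles of Parp1 (2.07 to 5.18) lie above 0 and the triangles (-5.07 to -0.867) below 0, and the Rad18 values beyond 4 are all from C3H/HeJ.

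By pathway, the 3 nucleotide excision members tested, which recognise and cut out bulky lesions, had 1 sign in 4 of the strains. All 3 were positive in Balb/C, C57Bl6/J and DBA/2J, with medians of 0.510, 0.234 and 0.810, and all 3 were negative in A/J (median -0.259). In Balb/C this rested on array 36. Without arrays 34 and 36, Ercc1 had -0.224, Ercc5 -0.0752 and Rad23b 0.303 in Balb/C, and all 3 stayed positive in DBA/2J (0.141, 0.709 and 0.486). Ercc2, which had too few values for the test, had the other sign in all 4 strains. With all arrays it had 0.241 in A/J, -0.243 in Balb/C, -0.308 in C57Bl6/J and -0.0680 in DBA/2J. Ercc4, also not tested, had the sign of the 3 in A/J (-0.202), Balb/C (0.595) and DBA/2J (1.28) and no strain value in C57Bl6/J. Many of these strain values joined dye orientations of opposite sign. This held for Ercc1 in all 4 strains, for Ercc5 in A/J and Balb/C and for Rad23b in Balb/C and C57Bl6/J. Ercc5, the nuclease that cuts on the 3′ side, ran from -0.739 in C3H/HeJ to 0.810 in DBA/2J. Rad23b, a partner of the lesion sensor Xpc, had the highest mean of the group (0.268, SE 0.190). Ercc1, which cuts on the 5′ side with Ercc4, had the lowest (0.104, SE 0.136), and its highest array was array 36 of Balb/C with 5.06.

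The 3 Fanconi anemia members, which act on crosslinks between strands, had positive means. Fancc, of the core complex, had the highest (0.283, SE 0.271) through C3H/HeJ, where its only 2 arrays gave -1.90 with irradiated RNA in Cy5 and 5.69 with irradiated RNA in Cy3. Fanca, also of the core complex, had 0.982 in C57Bl6/J and 0.893 in DBA/2J and a mean of 0.269. Fancl, the ubiquitin ligase of the complex, had the lowest mean of the 3 (0.140).

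Signalling, end joining and mismatch repair were measured by few members. Of the checkpoint clamp and its loader, Rad9a had a mean of 0.188 and Rad17 a mean of -0.0552, and Rad17 had its lowest value, -0.734, in C3H/HeJ. Xrcc6, the Ku70 subunit that binds broken ends, had a mean of -0.0971 (SE 0.128). Its values were 0.164 in A/J, -0.444 in B6.C, -0.139 in Balb/C, -0.245 in C3H/HeJ, 0.247 in C57Bl6/J and -0.166 in DBA/2J. Msh3, which detects loops of unpaired bases, had the lowest mean of all members, -0.452 (SE 0.274). It rested on C3H/HeJ (-2.10), with -6.62 and -2.52 against 0.803 and -0.0433, while the other strains lay between -0.519 and 0.169.

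Outside these pathways, Rad18 had a mean of -0.0774 and Rad21, the cohesin subunit that closes the ring around sister chromatids, a mean of -0.140 with 4 of 6 strains negative. Parp9, a PARP family member linked to interferon responses, had a mean of -0.133. Its values were 0.575 in A/J, -0.328 in B6.C, -0.563 in Balb/C, where it was the lowest member, 0.233 in C3H/HeJ, -0.310 in C57Bl6/J and -0.402 in DBA/2J.

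The strains differed in how many members were positive: 13 of 27 in A/J, 10 in B6.C, 19 in Balb/C, 9 in C3H/HeJ, 15 in C57Bl6/J and 16 in DBA/2J. Of all probes, 44.4% were positive in A/J, 43.7% in B6.C, 55.5% in Balb/C, 44.1% in C3H/HeJ, 46.4% in C57Bl6/J and 55.7% in DBA/2J. The members' medians were -0.0132, -0.156, 0.0986, -0.235, 0.226 and 0.215 in the same order of strains, against -0.0307, -0.0493, 0.0460, -0.0633, -0.0486 and 0.0639 over all probes. Without arrays 34 and 36, left out after the data were seen, 11 of 27 members were positive in Balb/C (median -0.0752) and 12 of 26 in DBA/2J (median -0.0379). The medians of all probes were then 0.0202 in Balb/C and 0.0606 in DBA/2J.

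Within strains, 8 pairs of a member and a strain passed an unadjusted p under 0.05 in the fit of all 38 arrays with a dye effect, and 0 passed after adjustment within the strain. In A/J and B6.C 0 members passed, where 0.296% of all probes in A/J and 0.496% in B6.C were positive calls and 0.124% and 5.27% negative calls. Adjustment left 0% of all probes in A/J, Balb/C and DBA/2J, 0.186% in B6.C, 0.51% in C3H/HeJ and 0.0345% in C57Bl6/J.

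C3H/HeJ had 4 of the 8 member calls, all negative. Of all probes, 6.66% were negative calls and 5.31% positive calls in this strain. The 4 members were Msh3 (fitted value -2.10, SE 0.641, adjusted p = 0.126), Lig1 (-0.919, SE 0.293, adjusted p = 0.136), Rad17 (-1.04, SE 0.478, adjusted p = 0.380) and Rpa3 (-1.05, SE 0.506, adjusted p = 0.410). Lig1 was the only one of them with 1 sign in both orientations and no array on which the call rested. Msh3 lost its call when array 25 was left out, and its fitted strain value was then -0.493. Rpa3 lost its call without array 26 and also without array 27. With array 27 left out, the fitted strain value of Rpa3 was 0.0534. Rad17 lost its call without array 25, array 27 or array 29. With a dye effect of its own for each strain, 2 members passed an adjusted p under 0.05 in C3H/HeJ, where 2.49% of all probes did: Msh3 (-2.10, SE 0.386, adjusted p = 0.00196) and Fancc (1.90, SE 0.443, adjusted p = 0.0361). The Fancc value came from 2 arrays of opposite sign.

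In Balb/C 0 members passed, where 5.99% of all probes were positive calls and 2.3% negative calls. In C57Bl6/J Rad51d passed on the positive side (1.19, SE 0.505, adjusted p = 0.765; 3.75% of all probes) and Pole4 on the negative side (-1.05, SE 0.451, adjusted p = 0.765; 2.64%). Rad51d lost its call without array 11 and without array 97.

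In DBA/2J 2 members passed on the positive side, where 5.68% of all probes did, and 0 on the negative side, where 0.524% did. They were Rad50 (1.29, SE 0.451) and Rad23b (1.13, SE 0.445), each at an adjusted p of 0.759. Both calls were lost when array 34 was left out, and the fitted strain values were then 0.675 for Rad50 and 0.526 for Rad23b.

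The difference between strains was tested in each orientation by itself, over members with a value on all 19 of its arrays. With irradiated RNA in Cy5, 0 of 4 members passed an adjusted p under 0.05, where 1.76% of all probes did, and 0 an unadjusted p under 0.05, where 29.2% did. The smallest p-values belonged to Lig1 (adjusted p = 0.426 with irradiated RNA in Cy3), Parp9 (adjusted p = 0.301 with it in Cy5) and Xrcc6 (adjusted p = 0.328 with it in Cy5). With irradiated RNA in Cy5, Xrcc6 averaged 0.805 ± 0.390 in C3H/HeJ (SD, n = 3) and -0.435 ± 0.490 in Balb/C (n = 4), and with it in Cy3 the turned values averaged -1.29 ± 0.565 in C3H/HeJ and 0.157 ± 0.119 in Balb/C. In each of these strains the sign thus changed with the dye.

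With irradiated RNA in Cy3, 0 of 10 members passed an adjusted p under 0.05, where 0.593% of all probes did, and 0 an unadjusted p under 0.05, where 17.8% did. When 2 arrays in every strain were enough, 1 of 17 members passed with irradiated RNA in Cy5, where 3.58% of all probes did. This was Rad18 (adjusted p = 0.000206), at -5.10 in C3H/HeJ with irradiated RNA in Cy5 and, as given above, at 4.58 with it in Cy3.

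Over the 27 members, the strain values of Balb/C and DBA/2J correlated at 0.812 (all probes: 0.560), those of Balb/C and C57Bl6/J at 0.486 (0.343) and those of C57Bl6/J and DBA/2J at 0.478 (0.587). The other 12 pairs of strains lay between -0.275 and 0.329. Without arrays 34 and 36 the first of these correlations was 0.470 over 26 members (all probes: 0.272). Genes are not independent replicates. A dye effect that is the same on all arrays cancels in the strain values, whereas one that differs between arrays does not. Its part in these correlations was not tested.

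Of the 14 members with too few values, Rpa2, the middle subunit of the single-strand binding complex, had the largest scores. It had values on 26 arrays, with 15.4 on array 34 and 3.73 on array 83 of DBA/2J against -0.247 and -1.40 with irradiated RNA in Cy3. In Balb/C it had 1.0, 2.82, 12.7 and 5.98 against -0.573, -2.81, -1.75 and -2.68. The 2 orientations had opposite signs in both strains, as for Parp1. In C57Bl6/J its 3 arrays were all positive, at 1.93, 4.06 and 3.37, the last being array 97.

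Atm, the kinase that signals double-strand breaks, had values on 14 arrays and in both orientations in A/J (0.542), Balb/C (-0.568) and C3H/HeJ (-1.21) only. It was negative on 12 of these 14 arrays. Most of them had irradiated RNA in Cy5: 3 of 4 in Balb/C, 2 of 3 in C3H/HeJ and all in B6.C, C57Bl6/J and DBA/2J. In strains with 1 orientation, irradiation and dye cannot be told apart. In A/J, Balb/C and C3H/HeJ both orientations had 1 sign, with 1 array each for irradiated RNA in Cy3. Xrcc1, the scaffold of single-strand break repair, lay between -0.864 and 0.232 in 4 strains and had -3.05 in C3H/HeJ. That value came from a mean of -7.95 with irradiated RNA in Cy5 and of 1.86 with it in Cy3 (2 arrays each), so that the orientations had opposite signs. The strain values that the other 11 of these members had (Lig3, Parp2, Rad1, Rad51b, Msh5, Msh6, Ercc2, Ercc4, Pold2, Pole and Polk) lay between -0.503 and 2.21, and Parp2 had none.

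Other lists were read in the same test over strains. Of 22 tested genes of other DNA repair proteins, 13 had positive means and the median was 0.00650, and 0 passed an unadjusted p under 0.05. Of 9 tested p53 target genes, 3 had positive means and 0 passed. Of 13 proliferation genes 1 passed on the positive side, Mcm4, a subunit of the replicative helicase (0.416, SE 0.139, adjusted p = 0.567). The lists for B cells (7 tested), T cells (5) and red blood cell precursors (6) had medians of -0.0782, 0.0550 and -0.170 with 0 genes passing, and the macrophage and myeloid list (5) a median of 0.191 with 1 passing, S100a9 (0.523).

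Genes of the pancreas, which lies beside the spleen, were negative in all 12 of 12 tested, with a median of -0.473, and 6 of them passed an unadjusted p under 0.05, for example Clps, the colipase (-0.485, SE 0.162, adjusted p = 0.567). Their median on single arrays ran from -4.11 to 2.01 in A/J and from -2.22 to 0.327 in Balb/C. Their part in the members' values was not tested.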

How the data were processed

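Two-colour arrays of spleen RNA were analysed. Per the paper's methods, the authors removed spots of poor quality or low expression, subtracted local background and normalized within arrays by Lowess. The authors deposited 1 signed score per spot and array. For this score, neither scale nor log base, centring or direction of the dyes is stated in the sources used, and the array medians (-3.16 to 3.95) were far from 0. Control spots (blank, buffer and Alien) were left out and spots of one probe averaged. Probes were named through accessions in RefSeq genes of GRCm38.p6. Each array was centred on its median, and arrays with irradiated RNA in Cy3 were multiplied by -1.

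Tests used limma 3.58.1 in R 4.3.3. The mean of 6 strain values was tested against 0, differences between strains by an F test over the 19 arrays of an orientation, and each strain in a fit of 38 arrays with strain means and a dye effect. P-values were adjusted by Benjamini-Hochberg over all probes tested (14513 over strains, 4437 and 5063 for the F tests with irradiated RNA in Cy5 and Cy3). The design foresaw log ratios, and scores were used in their place. The number of arrays limits the precision.

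The members, pathways, lists and tests were chosen with earlier results of these data known. Named in full were the 4 members with the smallest p over strains, those with 1 sign in all strains, the 3 with the smallest p between strains, the highest and lowest member of each strain and pathway, and a fixed set of key genes (Atm, Xrcc6, Parp1 and Ercc1 among those analysed). Leaving out arrays 34 and 36 was added after the data were seen. Some genes that meet the symbol rule are not reported here and are left out of all counts of members.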

Additional observations from a re-analysis of the deposited data

Results flagged for a closer look

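In 4 of the 27 members tested, 1 strain lay far from the other 5, by Dixon's test at the 95% level, which flags about 1 in 20 groups by chance. The same test flagged 8.30% of all 14513 probes, and in 61.6% of those the strain that stood apart was C3H/HeJ. Of these 4 strains, 3 are C3H/HeJ. Fancc had a value of 1.90 in C3H/HeJ, against -0.514 to 0.200 in the other strains, and the gap took up 0.704 of the whole range. Msh3 had -2.10 in C3H/HeJ, against -0.519 to 0.169 (0.696 of the range). Lig1 had -0.919 in C3H/HeJ, against -0.373 to -0.0548 (0.632 of the range). Pole4 had -1.41 in C57Bl6/J, against -0.238 to 0.266 (0.699 of the range). Of these members, Lig1 in C3H/HeJ and Pole4 in C57Bl6/J had 1 sign in both dye orientations, and Fancc and Msh3 in C3H/HeJ did not. Over 309 comparisons of a member between 2 strains with at least 4 arrays each, 0 had all arrays of one strain positive and all of the other negative. The same comparison was not made over all probes, so this count cannot be set against a share of them.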

How the results depend on the processing

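Over the 6 strains, the count of members at an adjusted p under 0.05 was 0 under all alternatives tried, with 0 to 0 as strains were left out in turn. At an unadjusted p under 0.05 the count of 2 was 4 when values in 3 strains were enough, and 1 with strains weighted by arrays, with arrays 97, 50 and 53 left out, with these 3 arrays turned, with arrays 34 and 36 left out and with medians of arrays. It was 0 to 5 as strains were left out, with 5 without C3H/HeJ and 0 without C57Bl6/J or without DBA/2J. Over all probes, 1191 of 14513 passed with all strains, and 1395 of 19513 when values in 3 strains were enough. Without C3H/HeJ 2062 of 14966 probes passed, against 812 of 15980 without C57Bl6/J and 513 of 14761 without DBA/2J. The split of positive to negative calls depended on centring: 1 to 1 members and 619 to 572 probes when centred on the median, 3 to 0 members and 1544 to 92 probes when centred on Gapdh, and 2 to 0 members and 546 to 24 probes as deposited. Centring on Gapdh put the median of all probes at 0.140, and values as deposited at 0.121.

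For the difference between strains with irradiated RNA in Cy5, 0 members passed. As deposited, where the arrays' own medians enter, 4 of 4 members passed, and so did 4369 of all 4437 probes. When 2 arrays in every strain were enough, 1 of 17 members (Rad18) and 375 of 10465 probes passed. With irradiated RNA in Cy3 the count was 0 under every alternative tried. Within strains, 0 pairs of a member and a strain passed after adjustment, but 2 did with a dye effect per strain, and 0 to 1 as single arrays were left out (Lig1 without array 25, Msh3 without array 26 or array 28, all in C3H/HeJ). Of all probes in C3H/HeJ, 74 of 14513 passed after adjustment with all arrays and 361 with a dye effect per strain. Without array 25 it was 448 of 14405, without array 26 36 of 14186 and without array 28 121 of 14253. At an unadjusted p under 0.05 the 8 pairs were 0 as deposited, 15 with a dye effect per strain, 8 without arrays 34 and 36 and 5 to 12 as single arrays were left out, with 5 without array 96. The calls over all 14513 probes also fell as deposited and rose with a dye effect per strain. In C3H/HeJ, for example, they went from 1737 to 423 and to 2023. The cause was not tested.

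The sign of the mean over strains turned for members near 0. Centred on Gapdh, it was 0.0337 for Parp9, 0.123 for Rad17, 0.0751 for Xrcc6 and 0.131 for Rad18. As deposited, it was 0.123 for Rad17, 0.0213 for Xrcc6, 0.0199 for Rad21 and 0.0190 for Pole3. With arrays 97, 50 and 53 turned, it was 0.00199 for Rad51ap1, 0.0825 for Parp9 and 0.0611 for Pole3. Centred and scaled, it was -0.0449 for Ercc1. With medians of arrays, it was -0.0933 for Fancl. Without arrays 34 and 36 it was -0.00159 for Fancl, -0.0460 for Ercc1 and -0.00856 for Poldip2. As strains were left out, the mean ran from -0.0407 to 0.442 for Fancc, -0.318 to 0.0171 for Pole4, -0.0106 to 0.230 for Poldip2, -0.229 to 0.0157 for Pole3, -0.196 to 0.0806 for Rad17 and -0.0410 to 0.126 for Rad54l. For Rad51d it ran from 0.417 to 0.706, for Rpa3 from -0.439 to -0.263 and for Lig1 from -0.319 to -0.146. These members had 1 sign in all strains, so leaving out a strain could not turn the sign of their mean. Pold1, with strains of both signs, kept a positive mean (0.306 to 0.888). Rad51d could not be tested without arrays 34 and 36. No paired analysis was possible because the labels do not say which arrays share a pair of mice. With 2 to 4 pairs of mice in a strain, precision is limited by the number of arrays.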
